A study of Mus musculus with 7 samples.

Results

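The genes Mup3, Mup7, Mup10, Mup11, Mup17 and Mup20 of the major urinary protein (Mup) family were followed in droplet single-cell RNA libraries of mouse liver. They were chosen by their measured UMI counts and levels in these libraries, with earlier results known, and are 6 of the 22 Mup features among the 32285 genes of each matrix. Together they held 96914 of the 98694 Mup unique molecular identifiers (UMIs, each standing for 1 captured transcript) of all barcodes in all 7 libraries, which is 98.2%. Mup3 gave 73.6% and Mup20 22.7% of these 96914 UMIs. The levels below are therefore a description of genes picked for them, and no test was made on them. Mup7, with 290 UMIs, and Mup10, with 191, were not among the 6 most counted features, since Mup2 had 389, Mup14 385 and Mup16 321.

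Major urinary proteins are small lipocalins, barrel-shaped carriers with a pocket for fat-soluble molecules. They are made by hepatocytes, secreted into blood and passed into urine, where they hold and slowly release volatile pheromones, and Mup20 (darcin) is itself a male scent signal. Their liver transcription is known to begin around puberty, to depend on growth hormone acting through Stat5b and on androgen, and to be higher in adult males than in females.

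All 6 genes lie on chromosome 4 on the minus strand, with 7 exons each in GENCODE M21 (build GRCm38). Mup7 (ENSMUSG00000073842) spans chr4:60066470-60070411, Mup10 (ENSMUSG00000078680) chr4:60578260-60582199 and Mup11 (ENSMUSG00000073834) chr4:60658466-60662411. Mup17 (ENSMUSG00000096688) spans chr4:61591929-61595871, Mup20 (ENSMUSG00000078672) chr4:62050234-62054158 and Mup3 (ENSMUSG00000066154) chr4:62083479-62087261. The build used to make the matrices is not given in the sources used here, so these positions are those of the annotation. The coding sequences of Mup7, Mup10, Mup11 and Mup17 were 98.3% to 98.9% identical to each other. Mup20 was 90.1% to 91.3% identical to those 4, and Mup3 was 86.6% identical to Mup20 and 82.1% to 83.3% identical to the other 4. A stretch of 60 coding bases in exon 3 is shown because it holds 20 positions at which the 6 genes differ. Capitals mark a base unlike the most common base of the 6 genes at that position, of which Mup3 has 17, Mup20 8 and Mup11 1. The stretches are transcript sequence, 5′ to 3′, from chr4:62085973-62086032 (Mup3), chr4:62052650-62052709 (Mup20), chr4:60660902-60660961 (Mup11), chr4:60068915-60068974 (Mup7), chr4:60580693-60580752 (Mup10) and chr4:61594365-61594424 (Mup17).
Mup3: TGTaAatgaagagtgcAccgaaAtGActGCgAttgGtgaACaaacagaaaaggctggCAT
Mup20: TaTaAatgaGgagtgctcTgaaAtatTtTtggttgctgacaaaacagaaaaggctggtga
Mup11: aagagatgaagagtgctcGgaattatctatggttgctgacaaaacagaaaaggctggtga
Mup7: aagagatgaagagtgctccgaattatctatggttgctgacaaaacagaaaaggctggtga
Mup10: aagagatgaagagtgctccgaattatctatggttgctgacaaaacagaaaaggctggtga
Mup17: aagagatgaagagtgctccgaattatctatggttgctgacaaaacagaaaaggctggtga

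This likeness limits what a count of each gene can mean. The kit counts transcripts near their 3′ end, and of 411 windows of 90 bases in the last 500 bases of the annotated transcript, 411 of Mup3 (100%) and 371 of Mup20 (90.3%) were found in no other gene's transcript. The 40 other windows of Mup20 were shared with Mup-ps19. For Mup17 268 windows (65.2%) were its own, for Mup11 128 (31.1%), for Mup7 2 (0.487%) and for Mup10 0. Most reads of Mup3 and Mup20 from these windows can thus be assigned, whereas the split among Mup7, Mup10, Mup11, Mup17 and their copies is uncertain. The study's methods state that introns were counted too, and intron sequence was not searched for shared windows. The transcripts are 927 to 984 bases long, and UMIs were not divided by length.

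Promoter windows were looked at as a description of the sequence of these genes. A RefSeq promoter (250 bases before to 50 after the gene start, build GRCm38.p6) was matched for 5 of the genes, Mup3, Mup7, Mup10, Mup11 and Mup17. The letters TATATAA, searched on both strands, occurred in 4 of these 5 and in 1065 of all 32851 promoters (3.24%). The 60 bases that end with these letters are shown in capitals for the letters, 5′ to 3′ on the minus strand, from chr4:62087322-62087381 (Mup3), chr4:60582179-60582238 (Mup10), chr4:60662391-60662450 (Mup11) and chr4:61595851-61595910 (Mup17). They were alike in all 4 genes at 30 of the 60 positions. Counted from the RefSeq start the letters begin at -11 in Mup3, -30 in Mup10, -2 in Mup11 and -25 in Mup17. The GENCODE spans given above begin farther upstream in Mup10, Mup11 and Mup17, so by that annotation the letters lie inside these 3 genes and only those of Mup3 lie before the start. The Mup7 window, chr4:60070426-60070725, ends before the GENCODE start of Mup7, so no base inside that span was searched. Its lack of the letters is thus not a measured difference from the other genes.
Mup3: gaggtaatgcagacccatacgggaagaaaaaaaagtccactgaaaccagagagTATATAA
Mup10: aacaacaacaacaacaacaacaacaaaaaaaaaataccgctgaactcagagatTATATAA
Mup11: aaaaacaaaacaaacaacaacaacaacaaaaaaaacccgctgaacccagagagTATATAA
Mup17: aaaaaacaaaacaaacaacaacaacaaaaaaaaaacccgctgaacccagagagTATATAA
The letters TTCNNNGAA, the form bound by Stat5 proteins, occurred in 0 of the 5 windows and in 2726 of all promoters (8.30%), searched in the same way. A match is a string of letters and not a measured site.

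The samples were livers or liver tumors of mice from a cross on a C57BL/6J background, in which Cre under the albumin enhancer and promoter removes a STOP cassette before a human c-MYC gene driven by the CAG promoter (ABC-Myc, Alb-Cre with CAG-Myc). Littermates lacking either or both of the transgenes served as the study's controls, and the study's text calls NEJ634, NEJ687, NEJ709 and NEJ723 tumors. The study's single-cell text describes healthy livers beside tumors, and it calls none of NEJ638, NEJ654 and NEJ677 a tumor. GEO's labels call all 7 libraries a hepatoblastoma murine model and give no groups, age or sex, so each library is described on its own and values are given per library. The albumin promoter is itself active in hepatocytes, so transgene and cell type go together in this model. In addition, the label of NEJ709 names NEJ634 in its description, and the series text speaks of nuclei where the labels speak of cells.

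The matrices list all barcodes. Their total UMI count ranged from 40214395 (NEJ638) to 132485391 (NEJ634), and between 6716 (NEJ638) and 16963 (NEJ634) barcodes were analysed as cells. Cells of clusters with hepatocyte-lineage markers numbered 5384 in NEJ634, 336 in NEJ638, 483 in NEJ654, 932 in NEJ677, 271 in NEJ687, 10 in NEJ709 and 15 in NEJ723. They are called hepatocyte-lineage-like below. Levels are UMIs per 1000000 UMIs of the same barcodes (CPM). The values in parentheses are 95% limits, by the exact Poisson method for CPM and the Clopper-Pearson method for shares, and they hold the error of counting alone. RNA set free from broken cells also enters droplets, so the Mup levels are set beside B-like and T/NK-like lymphocytes, in which Mup genes are not known to be active, and beside low-UMI barcodes (ranks 45000 to 90000 by UMI count). The median depth of low-UMI barcodes ran from 13 UMIs in NEJ709 to 562 UMIs in NEJ634. Most of those of NEJ634 thus exceeded the 500 UMIs asked of cells.

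Different clusters held these cells in different libraries. In NEJ634 and NEJ687 nearly all lay in cluster 0, where the 16 hepatocyte-lineage markers made up 2.77% and 3.49% of UMIs against 0.966% and 0.921% in low-UMI barcodes. In NEJ638, NEJ654 and NEJ677 the 314, 250 and 143 cells of cluster 35 had 11.0%, 16.3% and 15.9% marker UMIs, against 2.18%, 3.103% and 2.85% in low-UMI barcodes. All 16 markers were detected in each of these. Cluster 37, with 782 cells of NEJ677 and 223 of NEJ654, was different. Its cells had 0.548 times the median UMI count of their library, and their marker share of 2.54% (NEJ677) and 3.02% (NEJ654) did not exceed that of the low-UMI barcodes. The hepatocyte name of cluster 37 goes against that level, and it held 2235432 of the class's UMIs in NEJ677, against 1327234 in the other clusters. The summed levels, folds, shares of cells and list counts below, and the levels of some single genes, are therefore also given without it, a choice made after seeing the data. The correlations over libraries include it.

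The summed level of the 6 genes in hepatocyte-lineage-like cells was highest in NEJ677, at 6126 CPM (6045 to 6208). It was 3586 CPM (3502 to 3672) in NEJ654 and 709 CPM (677 to 742) in NEJ638. In NEJ634 it was 6.26 CPM (5.29 to 7.35) and in NEJ687 2.05 CPM (0.936 to 3.89). No neighbours in this order had overlapping limits, and NEJ677 was 2993 times NEJ687 (1576 to 6546), which had 9 UMIs. The span from the highest to the lowest library moved with the cells taken, to 6450 without cluster 37, 5275 at a finer clustering (resolution 2), 4945 without the cell with most Mup UMIs of each library, 1151 with each library clustered on its own, 806 as a mean over cells and 593 with cells chosen by marker share. With separate clustering NEJ634 was the lowest. NEJ723, with 15 cells, had 210 CPM, all of it from Mup20, but 63 of its 70 UMIs were in 1 cell, without which it had 24.6 CPM (9.87 to 50.6). Low-UMI barcodes of NEJ723 held 7.27 CPM. The 10 cells of NEJ709 held no UMI of the 6 genes, which allows up to 6.14 CPM, the level of 3 UMIs.

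**Figure D1:**
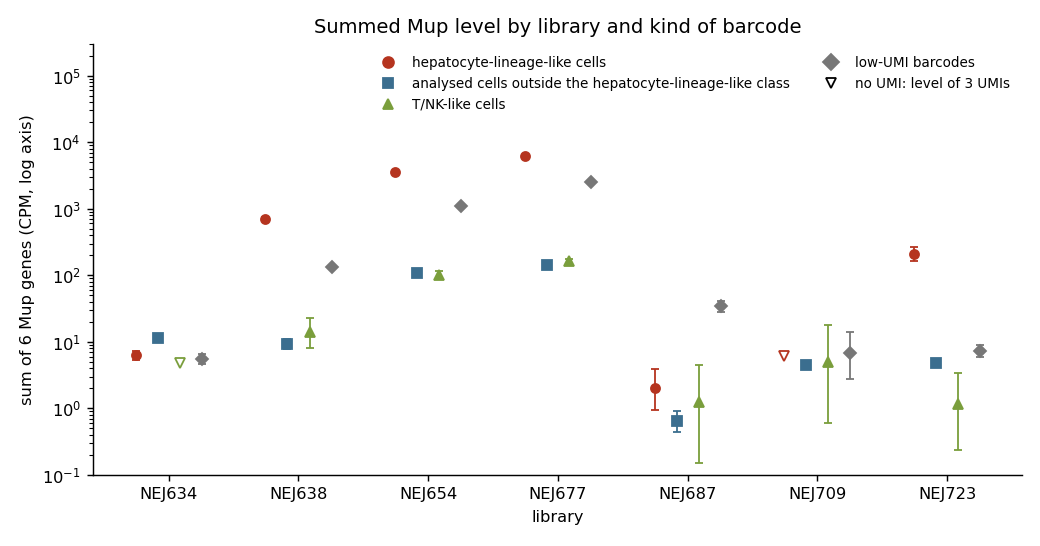
Summed level of the 6 Mup genes (y axis, CPM, log scale) in each library (x axis), for hepatocyte-lineage-like cells, other analysed cells, T/NK-like cells and low-UMI barcodes, with 95% Poisson limits of counting. Open triangles stand at the level of 3 UMIs where none was counted. In NEJ638, NEJ654 and NEJ677 the hepatocyte-lineage-like cells lie above the low-UMI barcodes, as do the 15 cells of NEJ723, and in NEJ687 they lie below.

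The same genes were counted outside these cells. T/NK-like cells held 162 CPM in NEJ677, 101 CPM in NEJ654 and 14.1 CPM in NEJ638, and B-like cells held 225, 138 and 22.4 CPM in the same order. In NEJ634 neither class held any UMI of the 6 genes, which allows up to 4.81 CPM in its 113 T/NK-like cells. Low-UMI barcodes held far more than lymphocytes, at 2513 CPM in NEJ677, 1099 CPM in NEJ654 and 134 CPM in NEJ638. Hepatocyte-lineage-like cells thus exceeded their low-UMI barcodes 2.44-fold (2.38 to 2.49) in NEJ677, 3.26-fold (3.15 to 3.37) in NEJ654 and 5.30-fold (4.85 to 5.79) in NEJ638. Without cluster 37 these folds were 5.26 (5.14 to 5.38), 3.97 (3.84 to 4.11) and 5.38 (4.92 to 5.88), so that NEJ677 no longer had the smallest excess. Mitochondrial UMIs made up 56.5% of the low-UMI barcodes of NEJ638 and 7.14% of its cells, against 8.31% and 8.85% of the low-UMI barcodes of NEJ654 and NEJ677. They lower the Mup CPM of the NEJ638 low-UMI barcodes, so its fold is not directly comparable with those of NEJ654 and NEJ677. Low-UMI barcodes of NEJ638, NEJ654 and NEJ677 also included barcodes that were cells of other libraries, as described below. With such barcodes left out, 3 of 5 libraries still exceeded their low-UMI level, but the folds without them are not given here. In NEJ634 the ratio was 1.15 (0.904 to 1.45), so that the sum in these cells did not exceed that in its low-UMI barcodes beyond counting error. The low-UMI barcodes of NEJ634 had a median of 562 UMIs and may include cells, so this ratio does not set cells against free RNA alone. Mup17, taken by itself, was higher in the cells, with 19 UMIs at 0.798 CPM (0.480 to 1.25) and 2 UMIs at 0.0780 CPM (0.00944 to 0.282) in low-UMI barcodes. The call on the sum depended on which cells were taken, since its ratio was 3.13 (2.47 to 3.96) for 774 cells called by the percentile rule alone and 2.36 (1.94 to 2.88) for 10434 cells among all barcodes over 500 UMIs. Those 10434 cells can share barcodes with the low-UMI range. NEJ687 stood the other way round, with 34.2 CPM in low-UMI barcodes and a ratio of 0.0598 (0.0267 to 0.117). In this library 493 of 535 UMIs of the 6 genes (92.1%) were outside the analysed cells, against 59.4% in NEJ677, 67.9% in NEJ654 and 48.0% in NEJ638.

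Cluster 37 pulled down the sums. In cluster 35 alone the 6 genes reached 13443 CPM in NEJ677, 4387 CPM in NEJ654 and 717 CPM in NEJ638. Cluster 37 held 0.763 times the low-UMI level in NEJ677 (1917 against 2513 CPM) and 1.05 times (0.956 to 1.14) in NEJ654 (1150 against 1099 CPM). Without cluster 37 the sum over the class rose to 13214 CPM in NEJ677 and 4368 CPM in NEJ654, so the order of the libraries held.

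Mup3 was the leading member in 3 libraries. In hepatocyte-lineage-like cells its level reached 3882 CPM (3818 to 3948) in NEJ677, 3187 CPM (3107 to 3268) in NEJ654 and 610 CPM (581 to 641) in NEJ638. In NEJ634 it was 0.588 CPM from 14 UMIs in 5384 cells, in NEJ687 0.455 CPM from 2 UMIs in 271 cells, and in NEJ709 and NEJ723 no UMI was counted. Without cluster 37 the levels were 8138 CPM in NEJ677, 3887 CPM in NEJ654 and 621 CPM in NEJ638. With or without it the limits of NEJ677 and NEJ654 did not overlap, and both levels stood far above those of the other libraries. Low-UMI barcodes held 1775 CPM of Mup3 in NEJ677, 996 CPM in NEJ654 and 115 CPM in NEJ638, below the cells in each case. In NEJ634 they held 0.702 CPM (0.416 to 1.11), with limits that overlap those of the cells. In NEJ687 they held 24.1 CPM, above its cells. T/NK-like cells held 112 CPM of Mup3 in NEJ677, 93.0 CPM in NEJ654 and 12.3 CPM in NEJ638.

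Mup20, which encodes darcin, was spread more unevenly. It reached 2055 CPM (2008 to 2102) in NEJ677, 276 CPM (253 to 301) in NEJ654 and 80.2 CPM (69.9 to 91.7) in NEJ638. In NEJ634 it was 4.75 CPM from 113 UMIs, in NEJ687 1.59 CPM from 7 UMIs, and in NEJ709 it was not counted in 10 cells. Among NEJ677, NEJ654 and NEJ638 no pair of neighbouring levels had overlapping limits. Part of the NEJ677 value came from 1 cell, picked after its value was seen, which held 1614 Mup20 UMIs and in which 8.17% of all 21936 UMIs came from the 6 genes. Without that cell Mup20 was 1612 CPM (1570 to 1654), still the highest of the 7 libraries. Without cluster 37 Mup20 was 4716 CPM in NEJ677, 341 CPM in NEJ654 and 79.8 CPM in NEJ638. This NEJ677 value includes the cell of 1614 Mup20 UMIs, which lies in cluster 35. Low-UMI barcodes held 655 CPM of Mup20 in NEJ677, 53.2 CPM in NEJ654 and 15.5 CPM in NEJ638. T/NK-like cells held 44.6, 4.35 and 0.878 CPM of Mup20 in the same order.

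The near-identical genes were counted at much lower levels. Mup11 was 117 CPM (106 to 129) in NEJ677, 32.5 CPM in NEJ654, 1.5 CPM in NEJ638 and 0.0840 CPM in NEJ634. Over all clusters of the class Mup17 had a different order, with 76.0 CPM (64.2 to 89.5) in NEJ654, 51.9 CPM (44.7 to 59.97) in NEJ677, 15.4 CPM in NEJ638 and 0.798 CPM in NEJ634. Cluster 37 set this order. Without it Mup17 was 105 CPM (88.0 to 124) in NEJ677 and 93.5 CPM (78.4 to 111) in NEJ654, with overlapping limits, and all 5 members of at least 10 CPM were highest in NEJ677. Mup11 was then 227 CPM (202 to 254) in NEJ677 and 31.9 CPM in NEJ654. Mup7 was counted in 2 libraries, at 14.3 CPM (10.7 to 18.8) in NEJ677 and 7.34 CPM (4.01 to 12.3) in NEJ654, and these limits overlap. Without cluster 37 it was 21.9 CPM (14.6 to 31.4) and 9.01 CPM (4.79 to 15.4). Mup10, pooled over the clusters of the class, was 7.34 CPM in NEJ654 (10.8 CPM from 5 UMIs in its cluster 37), 5.05 CPM in NEJ677, 1.5 CPM in NEJ638 and 1 UMI in NEJ634. In NEJ687, NEJ709 and NEJ723 no UMI of Mup7, Mup10, Mup11 or Mup17 was counted in these cells, which allows up to 0.682, 6.14 and 9.01 CPM. Low-UMI barcodes of NEJ677 held 48.2 CPM of Mup11, 18.8 CPM of Mup17, 12.4 CPM of Mup7 and 3.04 CPM of Mup10. Those of NEJ654 held 13.5, 30.1, 2.79 and 3.45 CPM in the same order. Lymphocytes held at most 6.56 CPM of any of these 4 genes.

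**Figure D2:**
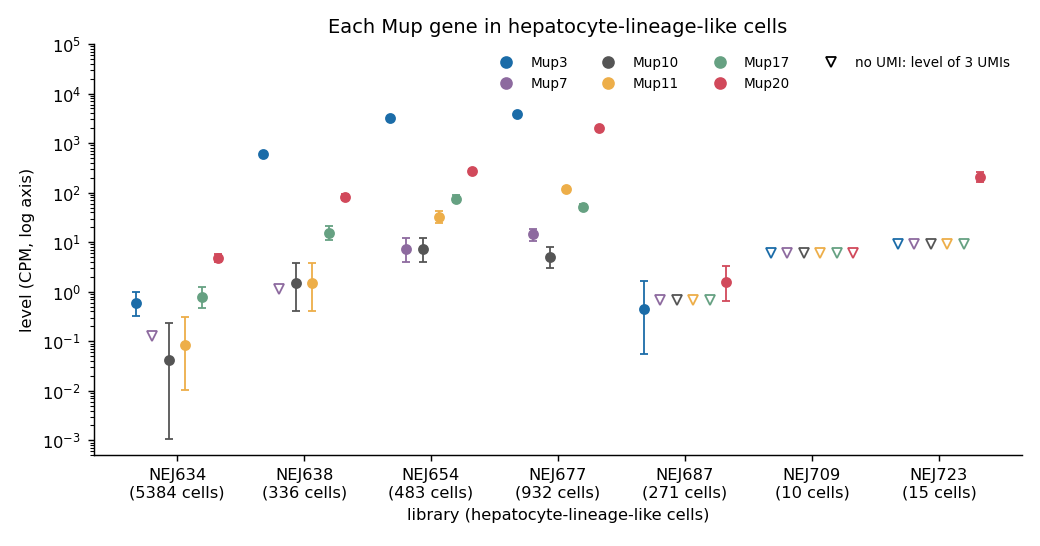
Level of each of the 6 genes (y axis, CPM, log scale) in hepatocyte-lineage-like cells of each library (x axis, with the number of cells), with 95% Poisson limits. Open triangles stand at the level of 3 UMIs where none was counted; Mup3 leads in NEJ638, NEJ654 and NEJ677 and Mup20 in NEJ634 and NEJ723.

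The make-up of the sum set NEJ677 apart from NEJ638 and NEJ654. Mup3 made up 86.1% of the 6 genes' UMIs in hepatocyte-lineage-like cells of NEJ638, 88.9% in NEJ654 and 63.4% (62.7 to 64.0) in NEJ677. Mup20 made up 11.3%, 7.71% and 33.5% (32.9 to 34.2) in the same order. In low-UMI barcodes the Mup20 share was 11.6% in NEJ638, 4.84% in NEJ654 and 26.1% in NEJ677, and in analysed cells outside the class it was 11.97%, 3.99% and 28.3%. The share in cells and in low-UMI barcodes had overlapping limits in NEJ638 and did not in NEJ654 and NEJ677, where cells were richer in Mup20. Without the cell of 1614 Mup20 UMIs the share in NEJ677 was 28.5% (27.9 to 29.1), which is still above the 26.1% (25.3 to 26.9) of its low-UMI barcodes. Within NEJ677, Mup20 made up 35.6% in cluster 35 and 24.8% (23.5 to 26.1) in cluster 37, the latter with limits that overlap the low-UMI barcodes. Cluster 35 includes the cell of 1614 Mup20 UMIs, which held 25.9% of the 6227 Mup20 UMIs there. The share of cluster 35 without that cell was not computed. In NEJ634 the order was turned round, since Mup20 made up 75.8% (68.2 to 82.5) and Mup3 9.40% of 149 UMIs in hepatocyte-lineage-like cells. Its low-UMI barcodes had the same order, with 85.7% (78.8 to 91.1) Mup20 and 12.9% (7.80 to 19.6) Mup3. Both shares had limits that overlap those of the cells. Low-UMI barcodes of NEJ687 had 70.3% Mup3 and 23.7% Mup20, shares with limits that include those of the NEJ677 low-UMI barcodes.

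**Figure D3:**
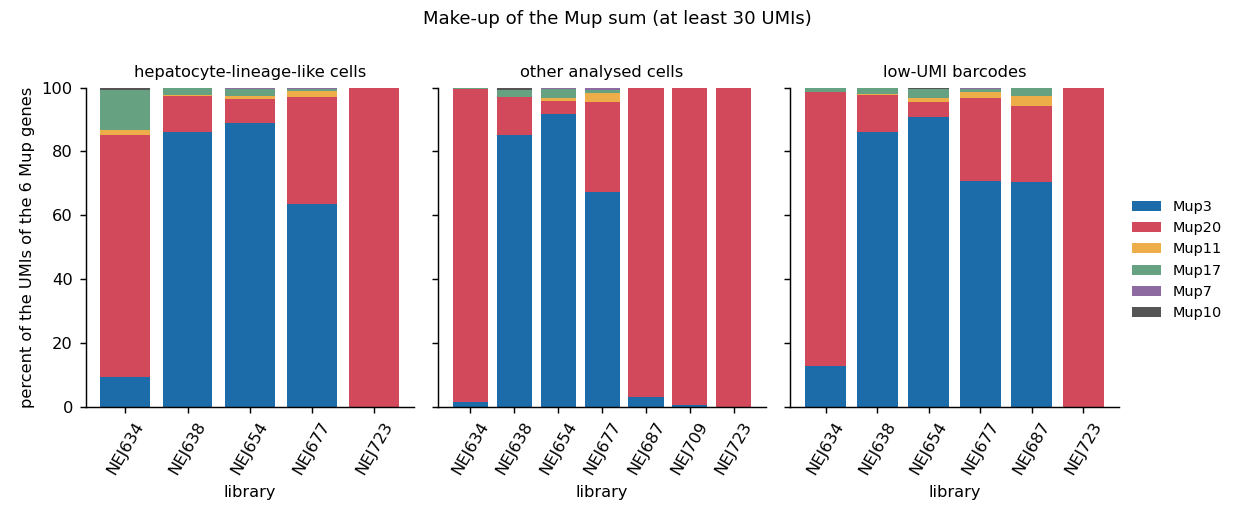
Stacked shares (y axis, percent of the UMIs of the 6 genes) by library (x axis) in hepatocyte-lineage-like cells, other analysed cells and low-UMI barcodes, where at least 30 UMIs were counted. Mup3 makes up most of the sum in NEJ638, NEJ654 and NEJ677, and Mup20 in NEJ634, NEJ709 and NEJ723; in NEJ687 Mup20 leads in cells and Mup3 in low-UMI barcodes.

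Single cells of cluster 35 showed how widely the pair of leading genes was spread. Mup3 was counted in all but 2 of 143 cells of NEJ677, all but 9 of 250 of NEJ654 and all but 110 of 314 of NEJ638. Its median level per cell was 7771 CPM (quartiles 3890 and 11919) in NEJ677, 2348 CPM (1519 and 3778) in NEJ654 and 249 CPM (0 and 793) in NEJ638. Mup20 was counted in 130 of the 143 cells of NEJ677, with a median of 2134 CPM, but in 89 of 250 cells of NEJ654 and 81 of 314 of NEJ638, where the median was 0. Among cells with at least 10 UMIs of the pair, Mup20 outnumbered Mup3 in 22 of 123 cells of NEJ677 (17.9%), 1 of 106 of NEJ654 and 2 of 51 of NEJ638. The median Mup20 percentage in these cells was 22.1%, 2.97% and 2.86%, with a highest value of 90.1% in NEJ677. After thinning to 1000 UMIs, the Spearman correlation of Mup3 with Mup20 over cluster 35 cells was 0.049 in NEJ677 (124 cells) and 0.13 in NEJ654 (222 cells). Over the whole class, cluster 37 included, it was 0.35 in NEJ677 (668 cells) and 0.15 in NEJ654 (328 cells). These correlations describe cells of a shared library with sparse counts and carry no test.

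**Figure D4:**
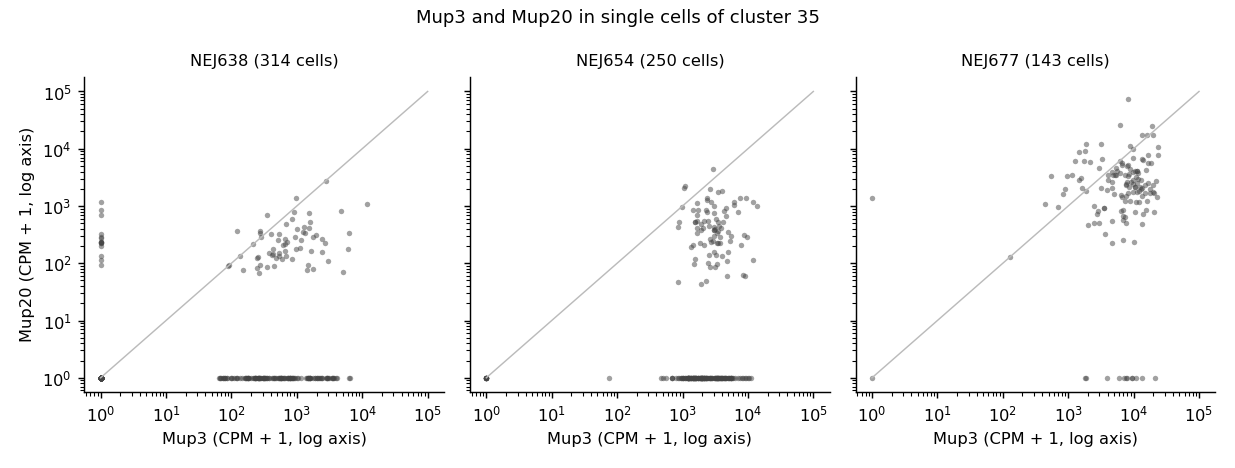
Each point is a cell of cluster 35, with Mup3 on the x axis and Mup20 on the y axis (both CPM + 1, log scale), for NEJ638, NEJ654 and NEJ677. The line marks equal levels; most cells lie below it, and those of NEJ677 reach above it in 22 of 123 cells with at least 10 UMIs of the pair.

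Mup3 and Mup20 were also set against genes of lobule position in these cells, as a description of sparse counts within a library. Hepatocytes near the portal vein and near the central vein express different enzymes. Over 124 cluster 35 cells of NEJ677, Mup3 correlated positively with the periportal genes Cyp2f2 (Spearman 0.56) and Alb (0.50), and negatively with the pericentral genes Cyp2e1 (-0.58), Glul (-0.40) and Gulo (-0.37). All 8 periportal genes of the list had a positive and all 6 pericentral genes measured a negative value with Mup3 there. In 222 cells of NEJ654 the signs were the same for 8 periportal and 3 pericentral genes, with values between -0.16 and 0.25. For Mup20 in NEJ677 the values with these and the mid-lobular genes lay between -0.19 and 0.17, and in NEJ654 between -0.092 and 0.28 (Hamp2). Over the whole class, cluster 37 included, the signs were mixed. In NEJ677 the values of the 7 periportal genes measured lay between -0.19 (Ass1) and 0.38 (Alb) for Mup20 and between 0.0016 (Ass1) and 0.55 (Alb) for Mup3. The pericentral gene Cyp2e1 had 0.10 with Mup20 and -0.011 with Mup3 there. In NEJ654 Mup3 had negative values with 2 periportal genes, Sds (-0.020) and Ass1 (-0.043). The difference between the pair was not tested. As description only, the genes with the highest mean correlation with the Mup sum over cluster 35 cells of both libraries were Cyp2f2 (0.35), Alb (0.34), Apoc3 (0.33), Serpina3k (0.30) and Fgg (0.26), of 887 genes considered.

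The share of cells with a Mup UMI was compared after each cell had been thinned to 500 UMIs, since depths differed. Hepatocyte-lineage-like cells with a UMI of any of the 6 genes then made up 63.1% (59.9 to 66.2) in NEJ677, 55.5% (50.9 to 59.98) in NEJ654 and 25% (20.5 to 29.99) in NEJ638. They made up 0.316% (0.184 to 0.505) in NEJ634 and 0 of 271 cells in NEJ687, which allows up to 1.11%. T/NK-like cells gave 9.78% in NEJ677, 8.21% in NEJ654 and 0.979% in NEJ638, and B-like cells 12.04%, 7.69% and 0.904%. The share in hepatocyte-lineage-like cells was above that in lymphocytes in these 3 libraries. Low-UMI barcodes held more Mup UMIs than lymphocytes, and at their level 500 UMIs would hold a Mup UMI in 71.5% of barcodes in NEJ677, 42.3% in NEJ654 and 6.47% in NEJ638. The NEJ638 value is lowered by the 56.5% of mitochondrial UMIs in its low-UMI barcodes. For cells without cluster 37, the mean chance of a Mup UMI among 500 was 93.7%, 72.0% and 25.4% in the same order, above these levels. For cluster 37 it was 55.5% in NEJ677 and 38.5% in NEJ654. The low-UMI values come from a pooled level and those of cells from a mean over single cells, which lies lower where cells are uneven. By pooled level cluster 37 held 0.763 times (0.737 to 0.790) its low-UMI barcodes in NEJ677 and 1.05 times (0.956 to 1.14) in NEJ654. In NEJ634 and NEJ687 T/NK-like cells had 0 of 113 and 0 of 344, which allows up to 2.65% and 0.872%, so a share as low as 0.316% was not distinguishable from background at this depth. Without thinning, the shares in hepatocyte-lineage-like cells were 88.3% in NEJ677, 79.3% in NEJ654, 68.2% in NEJ638, 2.38% in NEJ634 and 1.48% in NEJ687, at median depths of 1885, 1862, 8504, 2957.5 and 12155 UMIs. Unthinned T/NK-like cells gave 38.3%, 22.4% and 2.45% in NEJ677, NEJ654 and NEJ638, at median depths of 3005.5, 2638.5 and 1642 UMIs.

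Mup20 was counted with few or no Mup3 UMIs in clusters of NEJ634 and NEJ723, outside the hepatocyte-lineage-like class, and in NEJ709 at a level no higher than in low-UMI barcodes. These clusters were picked after their values were seen. In NEJ634, cluster 27 (206 cells) held 247 Mup20 UMIs, 257 CPM (226 to 291), and no Mup3 UMI, and cluster 34 (41 cells) held 113 Mup20 and 2 Mup3 UMIs, 343 CPM (282 to 412) of Mup20. The low-UMI barcodes of NEJ634 held 4.68 CPM of Mup20, as did its hepatocyte-lineage-like cells at 4.75 CPM. Cluster 27 carried granulocyte precursor and hepatocyte-lineage markers together (mean log2 difference from other clusters 3.47 and 3.39), led by Fabp6, Ngp, Camp and the acute phase genes Saa1, Saa2 and Saa3. Cluster 34 carried macrophage and hepatocyte-lineage markers (3.38 and 2.72) at 3.23 times the median depth of the library. Both therefore stayed unnamed, and cells of mixed identity and droplets with more than 1 cell cannot be told apart there.

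In NEJ723, cluster 4 (2435 cells) held 336 Mup20 UMIs and no Mup3 UMI, which is 16.8 CPM (15.01 to 18.6) against 7.27 CPM (5.95 to 8.79) in low-UMI barcodes. Its leading genes were the claudins Cldn4, Cldn6 and Cldn7 and exocrine pancreas genes such as Ctrb1, and it stayed unnamed. It also held 1539 CPM of Alb and 1644 CPM of Afp, against 949 and 770 CPM in low-UMI barcodes. The UMIs were concentrated in 104 of the 2435 cells, with up to 26 in a cell. In NEJ709, cluster 15 (12670 cells), led by the neutrophil granule genes Camp and Ngp, held 204 Mup20 UMIs and 1 Mup3 UMI. At 5.22 CPM (4.52 to 5.98) it did not exceed the 6.77 CPM (2.72 to 13.9) of the low-UMI barcodes. Over all analysed cells, at least 3 Mup20 UMIs were found in 64 cells of NEJ634, 32 of NEJ723, 3 of NEJ709 and 2 of NEJ687. The 32 cells of NEJ723 had a median of 58523.5 UMIs, against 3862.5 for all its cells, and held 69.4% of the 447 Mup20 UMIs. The 64 cells of NEJ634 had a median of 4635.5 UMIs against 2463 and held 53.5% of 542, with Saa1 at 224 CPM and Saa2 at 182.2 CPM, against 47.3 and 25.2 CPM in hepatocyte-lineage-like cells. Alb and Afp were 3513 and 2518 CPM in the 32 cells of NEJ723, against 3716 and 1312 CPM in its hepatocyte-lineage-like cells. They were 4543 and 1579 CPM in the 64 cells of NEJ634, against 4210.5 and 2394 CPM. The 2 cells of NEJ687 held 2688 CPM of Alb and no Afp UMI. In the cells with at least 3 Mup20 UMIs of NEJ723, NEJ709 and NEJ687 no Saa1 or Saa2 UMI was counted. In the 64 cells of NEJ634 2 Mup3 UMIs were counted, and none in the cells of the other 3 libraries.

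**Figure D5:**
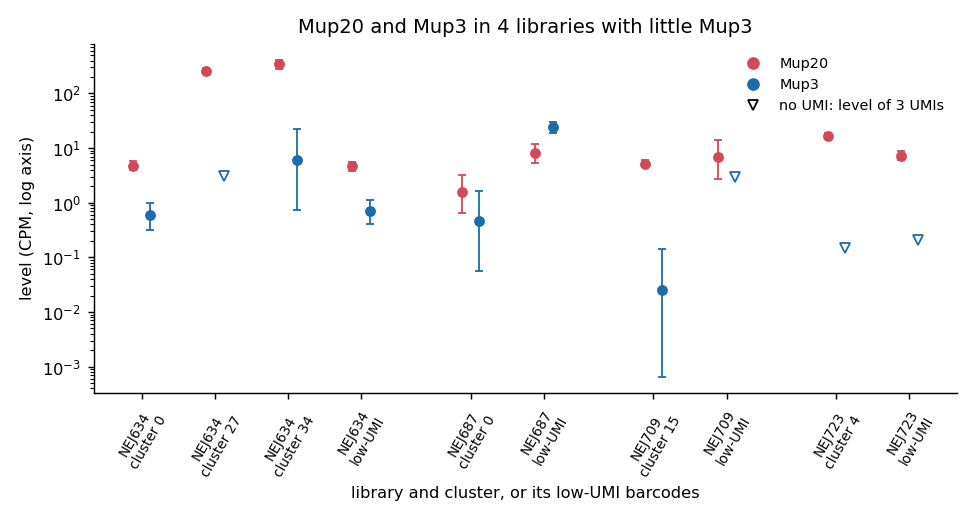
Level of Mup20 and Mup3 (y axis, CPM, log scale) in clusters with at least 30 UMIs of the 6 genes or named hepatocyte-lineage-like, and in low-UMI barcodes, of NEJ634, NEJ687, NEJ709 and NEJ723 (x axis), with 95% Poisson limits. Only clusters with at least 20 cells in the library are drawn, so the hepatocyte-lineage-like cells of NEJ709 and NEJ723 are left out. Open triangles stand at the level of 3 UMIs where none was counted; Mup20 lies highest in clusters 27 and 34 of NEJ634, and Mup3 lies above Mup20 only in the low-UMI barcodes of NEJ687.

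Libraries shared barcodes, and this bears on the low counts. Of the 97 low-UMI barcodes of NEJ687 with a Mup UMI, 58 (59.8%, 49.3 to 69.6) were cells of NEJ677 and 24 (24.7%, 16.5 to 34.5) were cells of NEJ654. Among low-UMI barcodes of NEJ687 without a Mup UMI, these shares were 10.1% and 7.71%. Of the 118 Mup UMIs in the low-UMI barcodes of NEJ687, 76 sat in barcodes that were cells of NEJ677 and 65 in its hepatocyte-lineage-like cells. Most of the UMIs behind the 34.2 CPM of NEJ687 thus sat in barcodes that were cells of another library, and the cause was not tested. The same low-UMI barcodes held 11.0 CPM of Xist, whereas the hepatocyte-lineage-like cells of NEJ687 held none and NEJ654 cells 284 CPM. In NEJ634, 11 of 135 low-UMI barcodes with a Mup UMI (8.15%) were cells of NEJ638, against 0.388% of those without. Other pairs of libraries went the other way. Of the low-UMI barcodes of NEJ638, 1.22% with a Mup UMI and 22.5% without were cells of NEJ634. Of those of NEJ677, 0.687% with and 17.8% without were cells of NEJ654, and of those of NEJ654, 2.28% and 16.3% were cells of NEJ677. In NEJ723, 17 of 150 cells with Mup20 (11.3%) were also cells of another library, against 2.17% of cells without it, and these held 37 of its 447 Mup20 UMIs. Pairs of libraries shared between 11 and 191 barcodes called as cells, counted before doublets were removed, most between NEJ654 and NEJ677. Leaving out such cells moved the sum in NEJ654 from 3586 to 3418 CPM.

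The 16 other Mup features held 1 to 389 UMIs each in all libraries together, led by Mup2, Mup14 and Mup16. In the same cells the sum over all 22 features came to 6228 CPM in NEJ677, 3621 CPM in NEJ654, 729 CPM in NEJ638, 6.72 CPM in NEJ634 and 2.05 CPM in NEJ687, so the 6 genes carried nearly all of it. Of the 10 Mup features of at least 10 CPM in any of the 5 libraries with at least 20 such cells, 9 were highest in NEJ677, and of the 5 members among them 4 were. Without cluster 37 these counts were 10 of 10 and 5 of 5. Over all 9127 genes of at least 10 CPM, 13.5% were highest in NEJ677, 10.7% in NEJ654, 24.7% in NEJ638, 27.4% in NEJ634 and 23.7% in NEJ687. Without cluster 37 the shares over 9201 genes were 13.4%, 11.2%, 22.8%, 27.5% and 25.1% in the same order. The members were chosen with these levels known, so their count is not read against that share.

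Genes that share the hormonal control of the Mup genes were described in the same cells, from lists taken with earlier results known. The classes compared lay in different clusters by library, with 782 of 932 cells of NEJ677 in cluster 37, so each count is given in both ways. All 12 of the male-biased, growth hormone dependent genes of at least 10 CPM were highest in NEJ677, as was 13.5% of all genes, and 9 of 12 were without cluster 37, against 13.4%. The other 3 were then Selenbp2 and Nudt7, highest in NEJ638, and Gstp1, highest in NEJ654. Among them, the steroid dehydrogenase gene Hsd3b5 was 49.7 CPM in NEJ677 and at most 1.87 CPM elsewhere, the organic anion carrier gene Slco1a1 116 CPM against at most 9.44 CPM, and the fatty acid hydroxylase gene Cyp4a12a 25.5 CPM. Without cluster 37 Slco1a1 was 279 CPM against at most 11.8 CPM, and Cyp4a12a 61.8 CPM. Cyp4a12a had 1 UMI in NEJ634 and none in NEJ638, NEJ654 and NEJ687, which allows up to 1.12, 1.57 and 0.682 CPM. Of 12 female-biased genes, 6 were highest in NEJ638 and 6 in NEJ654, with the same counts without cluster 37. Of all genes 24.7% and 10.7% were highest in these libraries, or 22.8% and 11.2% without cluster 37. The sulfotransferase gene Sult2a1 was 1644 CPM in NEJ638, 542 CPM in NEJ654, 149 CPM in NEJ634, 90.7 CPM in NEJ687 and 0.561 CPM in NEJ677. NEJ677 and NEJ687 held transcripts of Uty, Kdm5d, Eif2s3y and Ddx3y, which lie on the Y chromosome, in these cells (summed 101 and 89.8 CPM) and no Xist UMI, whereas NEJ634, NEJ638 and NEJ654 held Xist (508, 697 and 284 CPM) and at most 1 Y-linked UMI. NEJ687, with Y-linked transcripts, had 0 UMIs of Hsd3b5, Slco1a1, Cyp4a12a and Elovl3 as well as little Mup3. The part of tissue (tumor or healthy liver), sex and age in the Mup levels was not tested.

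Of 15 regulators in the growth hormone pathway and its liver partners, 9 were highest in NEJ638, where the background was 24.7%, and 1 in NEJ677, where it was 13.5%. Without cluster 37 these counts were 7 and 4, against 22.8% and 13.4% of all genes. The growth hormone receptor gene Ghr was 268 CPM in NEJ638, 194 CPM in NEJ654 and 225 CPM in NEJ677, against 39.2 CPM in NEJ634 and 30.7 CPM in NEJ687. Without cluster 37 it was highest in NEJ677, at 305 CPM against 271 CPM in NEJ638. Its feedback inhibitor gene Socs2 was 76.5, 24.1 and 62.0 CPM against 5.80 and 2.502 CPM, and its target Igf1 was 1438, 761 and 588 CPM against 70.6 and 14.8 CPM. Without cluster 37 Igf1 was 1453, 869 and 931 CPM, so that NEJ677 passed NEJ654. Stat5b, by contrast, lay between 24.1 CPM (NEJ687) and 46.7 CPM (NEJ654) and Hnf4a between 100.5 CPM (NEJ634) and 175 CPM (NEJ638). Cux2, a repressor with female-biased liver expression, was 19.6 CPM in NEJ687, 8.39 CPM in NEJ654, 7.85 CPM in NEJ634, 3.75 CPM in NEJ638 and 0.842 CPM in NEJ677, where it was 1.51 CPM without cluster 37. NEJ634 and NEJ687, low in Mup transcripts, thus had lower levels of Ghr, Socs2 and Igf1 than the other 3 libraries.

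Further lists of liver genes were described in the same way. Of 9 other secreted lipocalin genes 8 were highest in NEJ654 (background 10.7%), and 6 were without cluster 37 (background 11.2%). In the whole class the retinol carrier gene Rbp4 stayed between 2406 CPM (NEJ634) and 4203 CPM (NEJ654), with 3838 CPM in NEJ687. In NEJ677 it was 2433 CPM, and 3956 CPM without cluster 37. The alpha-1-acid glycoprotein gene Orm1 was 1456 CPM in NEJ654, 899 CPM in NEJ677 and 366 CPM in NEJ638, against 29.5 CPM in NEJ634 and 45.7 CPM in NEJ687. Without cluster 37 it was 1768 CPM in NEJ654 and 1609 CPM in NEJ677. Of 13 late postnatal hepatocyte genes, 7 were highest in NEJ638, 3 in NEJ654 and 3 in NEJ677, against 24.7%, 10.7% and 13.5% of all genes. Without cluster 37 the order turned, with 4, 2 and 7 in these libraries, against 22.8%, 11.2% and 13.4% of all genes. Serpina3k, a serine protease inhibitor gene, was 6151, 2654 and 3185 CPM in NEJ638, NEJ654 and NEJ677 against 4.75 CPM in NEJ634 and 2.73 CPM in NEJ687, and 6256, 3447 and 7819 CPM in the first 3 without cluster 37. Of 10 fetal genes 5 were highest in NEJ687 and 3 in NEJ634, as without cluster 37. Of all genes 23.7% and 27.4% were highest there, or 25.1% and 27.5% without cluster 37, so that the share in NEJ634 was near the background. The alpha-fetoprotein gene Afp was 2394 CPM in NEJ634 and 1548 CPM in NEJ687, against 2.10 to 9.0 CPM in the other 3 libraries. Of 8 pericentral genes 7 were highest in NEJ638, of 8 periportal genes 7 in NEJ654, and of 4 mid-lobular genes 2 in NEJ654. Without cluster 37 these counts were 4, 5 and 1, and 4 pericentral genes were then highest in NEJ677. The shares of all genes were 24.7% for NEJ638 and 10.7% for NEJ654, and 22.8%, 11.2% and 13.4% (NEJ677) without cluster 37.

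Among the genes with a pattern over the 5 libraries most like the Mup sum were the fatty acid desaturase gene Scd1 (Pearson r 0.999 of log2 CPM + 1), Ptms (0.998), the bile acid hydroxylase gene Cyp8b1 (0.998) and the fructose bisphosphatase gene Fbp1 (0.998), of 2158 genes considered. Scd1 was 902 CPM in NEJ677, 656 CPM in NEJ654, 359 CPM in NEJ638, 27.3 CPM in NEJ634 and 16.1 CPM in NEJ687, the same order as the Mup sum over a much smaller range. With 5 points of unlike composition these values serve only to name the genes. Over single hepatocyte-lineage-like cells of NEJ654 and NEJ677, with cluster 37 included, the most alike genes were Alb (mean Spearman 0.54), Serpina3k (0.50), Apoa1 (0.49), C3 (0.46) and Hpx (0.46), of 1022 genes.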

How the data were processed

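Droplet 3′ single-cell RNA libraries (10x V3.1 kit) from collagenase-dissociated mouse tissue were analysed, 1 per sample, 7 in all. The authors deposited unfiltered matrices of UMI counts per gene and barcode, not normalized. The matrix header names Cell Ranger 4 and the processing notes Cell Ranger 6.0, which was not settled, and the study's methods state that introns were counted. The genome build is not given in the sources used here.

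From these counts, barcodes were called as cells if they exceeded 1/10 of the 99th percentile among the 3000 largest, or by a Monte Carlo test (adjusted p 0.01) against barcodes of rank 45000 to 90000. The test was limited to 20000 barcodes, a limit reached in NEJ634, NEJ709 and NEJ723. Filters then asked for more than 500 UMIs and a mitochondrial share no higher than 20%. The doublet caller's own threshold marked 0 to 0.114% of cells and was not used, so the highest scores were removed at 0.8% per 1000 cells. Cells of all libraries were clustered together (Leiden, resolution 1, scanpy 1.11.5, Python 3.11.15) without the Mup features and without list genes that are not markers. Clusters were named by markers, with limits set after the data had been seen. Steps across many genes were tested on simulated data. CPM, shares, their exact limits (scipy 1.17.1), thinning and correlations were computed from UMI counts per library. A count of 0 was given with the level of 3 UMIs.

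The labels give no groups, so no library was treated as a replicate of another and no test between libraries was made. The study's own split into tumors and healthy livers was not used. The members, the gene lists and the rule for named genes were chosen with earlier results of these data known. Named genes were the members, the most counted other Mup features, list genes of at least 10 CPM, and the 5 genes most like the Mup sum over libraries and over cells. Some genes that this rule names are not reported here. Genes of at least 100 CPM in any of the 5 libraries entered the likeness over libraries. Alternatives covered cell calling, filters, doublets, clustering, the class definition, the CPM total, shared barcodes and the low-UMI profile. The series' own comparisons between tumor and control were not analysed here.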

Additional observations from a re-analysis of the deposited data

Results flagged for a closer look

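Barcodes that were neither called as cells nor in the low-UMI range were described only as part of the share of Mup UMIs outside the analysed cells, and the 6 genes were counted in them in every library, above the level of 3 UMIs. The summed level was 2014 CPM in NEJ677, 926 CPM in NEJ654, 76.0 CPM in NEJ638, 29.4 CPM in NEJ687, 7.17 CPM in NEJ723, 5.66 CPM in NEJ709 and 5.49 CPM in NEJ634. The level of 3 UMIs was 0.0867 to 0.268 CPM. Low-UMI barcodes held 2513, 1099, 134, 34.2, 7.27, 6.77 and 5.46 CPM in the same order. The levels of NEJ677, NEJ654 and NEJ638 were below the limits of the low-UMI barcodes, and those of NEJ687, NEJ723, NEJ709 and NEJ634 lay within them.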

How the results depend on the processing

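NEJ677 had the highest Mup sum under all 12 alternatives that changed it, and Mup3 led in 3 libraries under each of them. In 3 of 5 libraries cells exceeded low-UMI barcodes, and this count became 4 of 5 under the percentile rule alone, 5 of 7 with every barcode over 500 UMIs and 5 of 7 with cells chosen by marker share. As a mean over cells it was 4 of 5. There the mean itself, without a lower limit, was set against the upper limit of the pooled low-UMI level. The span of 2993 became 1151 with each library clustered on its own (NEJ634 was then lowest), 593 by marker share and 806 as a mean over cells, and was otherwise 2775 to 6450. In NEJ634 the sum became 17.1 CPM under the percentile rule alone, 12.9 CPM with every barcode over 500 UMIs, 5.02 CPM at 10% mitochondrial UMIs, 5.07 CPM clustered on its own and 18.2 CPM by marker share. In NEJ638 it became 588 CPM by marker share, 766 CPM without haemoglobin and mitochondrial UMIs in the total, 788 CPM as a mean over cells and 660 CPM without the cell with most Mup UMIs. In NEJ654 it became 3799 CPM under the percentile rule, 1714 CPM by marker share, 3775 CPM with the reduced total, 2298 CPM as a mean over cells, 3418 CPM without shared barcodes, 4368 CPM without cluster 37 and 3455 CPM without that cell. In NEJ677 it became 6729 CPM under the percentile rule, 5926 CPM at 10% mitochondrial UMIs, 5838 CPM clustered on its own, 4119 CPM by marker share, 6414 CPM with the reduced total, 3615 CPM as a mean over cells, 13214 CPM without cluster 37 and 5658 CPM without that cell. In NEJ687 it became 7.37 CPM clustered on its own, 6.94 CPM by marker share and 4.48 CPM as a mean over cells, and it was 1.15 CPM at resolution 2 and 1.14 CPM without the cell with most Mup UMIs. The cause was not tested. Without cluster 37 most late postnatal genes were highest in NEJ677 (7 of 13) in place of NEJ638. Leaving out cluster 37 or the top cell was chosen after seeing the data. No paired analysis was possible because the labels give no groups and no replicate numbers shared between groups. The number of cells in the class limits NEJ709 and NEJ723, with 10 and 15 hepatocyte-lineage-like cells in the main clustering. It was 57 and 176 with every barcode over 500 UMIs, and 249 and 1685 by marker share. Counts of Mup7, Mup10, Mup11 and Mup17 depend on how reads of near-identical copies were assigned.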

Other observations

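The summed levels in hepatocyte-lineage-like cells were higher in NEJ677 (6126 CPM, or 13214 CPM without cluster 37), NEJ654 (3586 CPM) and NEJ638 (709 CPM) than in NEJ634 (6.26 CPM) and NEJ687 (2.05 CPM). NEJ723 (210 CPM, or 24.6 CPM without 1 of its 15 cells) lay between, and NEJ709 (0 UMIs in 10 cells, which allows up to 6.14 CPM) was not separated from NEJ634 or NEJ687. The study's text calls NEJ634, NEJ687, NEJ709 and NEJ723 tumors, and the part of tumor state in these levels was not tested. Among the other clusters of NEJ677, the 490 endothelial-like cells of cluster 20, with a median of 845.5 UMIs, held 650 CPM of the 6 genes, and the 1363 endothelial-like cells of cluster 31, with a median of 4237 UMIs, held 105 CPM. The 21 cells of the unnamed cluster 4 in NEJ677, with a median of 907 UMIs, held 1488 CPM. Each of these clusters lay below the 2513 CPM of the low-UMI barcodes of NEJ677. These clusters were picked after their values were seen.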
